A study of Homo sapiens with 33 samples.

Results

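Tiles ms2-4x:68 to ms2-4x:105 of the MS2 oligonucleotide pool are 38 of the 105 tiles in that pool, each listed with 50 barcodes, so that 1900 lines of the count table belong to them. A tile is a designed oligonucleotide of the pool, and its reads are counted per barcode. The border at tile 68 was chosen by the FLAG and HA read counts set against Input in these same libraries, so the levels in those fractions are given below as a description, and no test is read from them. All 38 tiles had reads and were tested. The pool had been transfected into HEK293T, a human embryonic kidney line, and all 9 libraries came from cells that overexpressed FLAG-HA-MCP, the coat protein of bacteriophage MS2 with FLAG and HA peptide tags. The cells were harvested 48 hours after transfection and fixed with 0.1% formaldehyde for 10 minutes. The 3 groups were Input, immunoprecipitate with an antibody to FLAG, and immunoprecipitate with an antibody to HA, with 3 replicates each. None of these groups was a precipitation from cells without the tagged protein, so loss or gain with MCP cannot be told apart from what any precipitation does. Since nothing in the labels calls the replicates separate cultures, any p below reflects the variation among these 3 libraries a group, part or all of which could be technical.

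MCP binds a short RNA hairpin that in the phage overlaps the start of the replicase gene, and by doing so it shuts off translation of that gene. Because the hairpin is small and the binding tight, arrays of it are widely built into other RNAs to tether or pull down a tagged coat protein. The labels give no tile sequences, and they do not say what 4x in the tile names means or whether a tile carries the hairpin, so tiles are described here by number. The forward primer that amplified all oligonucleotides of the pools is shown because it reads out every tile, whatever its own sequence. Its capitals mark the library index, which can vary, and the 3′ end after the adapter.

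Forward primer: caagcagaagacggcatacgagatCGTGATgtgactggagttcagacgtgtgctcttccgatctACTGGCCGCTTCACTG

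The Input libraries held 4104695 to 4880714 reads, the FLAG libraries 4530657 to 5970277 and the HA libraries 5513258 to 6843839. Of these, 717850 to 880101 reads fell on tiles 68 to 105 in an Input library, 419935 to 495410 in a FLAG library and 470355 to 628807 in an HA library. The share of reads held by the 38 tiles was 17.8% ± 0.272 (SD, n = 3) in Input, 8.97% ± 1.71 in FLAG and 8.93% ± 0.586 in HA. The lowest Input share, 17.5%, was above the highest share of any precipitate library, 10.9% in FLAG replicate 1 (95% Wilson interval 10.91% to 10.96%, counting error only). Levels are given as CPM, counts per 1000000 reads after scaling each library by its size and TMM factor, a trimmed mean of the ratios between libraries. On this scale the tiles outside 68 to 105 had a median log2 fold change of 0.22 in FLAG and 0.23 in HA. With library size as the only scaling, the 38 tiles' own median moved from -0.99 to -1.26 in FLAG and from -1.02 to -1.32 in HA.

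In the FLAG precipitate the median tile of the 38 had a log2 fold change of -0.99 (range -1.44 to 0.58), against -0.02 over all 104 tested tiles of the pool. edgeR called 23 of the 38 lower and 1 higher. Over the whole pool it called 31.7% of tiles lower and 21.2% higher, and since the border was set on this contrast the counts carry no further weight. The 3 FLAG libraries lay below all 3 Input libraries for 27 of the 38 tiles and above them for 2, where the shares over the pool were 36.5% and 22.1%. In the HA precipitate the median was -1.02 (range -1.45 to 0.60), against -0.0035 over all tested tiles. Here 25 tiles were called lower and 1 higher, beside 30.8% and 23.1% of the pool. The HA libraries lay below Input for 26 of the 38 and above for 3, beside 36.5% and 33.7% of the pool. Both precipitates are set against the same Input libraries, so their values are side by side and not independent.

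The tiles on either side of the border are given as a description, since the border was set on these values, and low tiles were not confined to numbers 68 and up. Of the 66 other tested tiles, 10 were called lower in FLAG and 7 in HA, among them ms2-4x:24 at -1.12 through FLAG and -1.18 through HA and ms2-4x:50 at -1.41 through FLAG and -1.01 through HA, which were picked for naming after their values were seen. Tile ms2-4x:66, just outside, had 4470.1, 4810.0 and 4263 CPM in Input, 3183, 6889 and 5354 CPM in the FLAG libraries and 3332, 6193 and 5641 CPM in the HA libraries, and its groups overlapped. Tile ms2-4x:67, the last outside, had 6170.1, 6732 and 6805 CPM in Input, 6529, 8728 and 9159.5 CPM in the FLAG libraries and 8032, 8989 and 8509 CPM in the HA libraries. Its HA libraries were all above Input and its FLAG libraries were not. The log2 fold change was 0.31 ± 0.15 (SE) in FLAG, not called, and 0.37 ± 0.15 in HA, called higher. Tile ms2-4x:68, the first inside, had 3309, 3489 and 2561 CPM in Input, 1852, 1180.2 and 1112 CPM in the FLAG libraries and 1362, 1454 and 1187 CPM in the HA libraries, so every precipitate library was below every Input library, at a log2 fold change of -1.18 ± 0.24 (SE) in FLAG and -1.23 ± 0.24 in HA. Tile ms2-4x:69 had 2243, 2435 and 2173 CPM in Input, 1579.5, 787 and 1042 CPM in the FLAG libraries and 1158, 999 and 1275 CPM in the HA libraries. It too had no overlap with Input, at -1.01 ± 0.26 and -0.997 ± 0.26.

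The 6 lowest tiles by the mean of their FLAG and HA log2 fold changes had precipitate levels of 0.366 to 0.464 of Input. Tile ms2-4x:93 had 5519.5, 5169.9 and 4793 CPM in Input, 2624, 1454 and 1655 CPM in the FLAG libraries and 1983, 1651 and 2027 CPM in the HA libraries. That was 0.37 of the Input level in FLAG (-1.43 ± 0.24 on the log2 scale, SE from the fit of all 9 libraries) and 0.366 in HA (-1.45 ± 0.24). Tile ms2-4x:88 had 5247, 5733 and 5869.5 CPM in Input, 3209, 1791 and 1226 CPM in the FLAG libraries and 2419.6, 1527 and 2231 CPM in the HA libraries. FLAG replicate 1 was the highest of its precipitate libraries and still lay far under Input, and the fold changes were -1.44 ± 0.28 and -1.45 ± 0.28. Tile ms2-4x:79 had 4194, 4715 and 4595 CPM in Input, 2629, 1174 and 1416 CPM in the FLAG libraries and 2099.9, 1401 and 1721 CPM in the HA libraries. Its groups did not overlap, at -1.37 ± 0.27 and -1.37 ± 0.27.

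Tile ms2-4x:71 had 4304, 3162 and 3839.7 CPM in Input, 1671, 1398 and 1249 CPM in the FLAG libraries and 2330.0, 1241 and 1433 CPM in the HA libraries. The highest precipitate value, in HA replicate 1, stayed under the lowest Input value, and the log2 fold changes were -1.39 ± 0.25 and -1.18 ± 0.25. Tile ms2-4x:104 had 3944, 5603 and 5160.1 CPM in Input, 2251, 1949 and 1598 CPM in the FLAG libraries and 2553, 1777 and 2126 CPM in the HA libraries. Here the Input libraries themselves were spread, with replicate 1 lowest, and the fold changes were -1.34 ± 0.24 and -1.19 ± 0.24. Tile ms2-4x:73 had 1838, 1900.5 and 1713 CPM in Input, 1066, 598 and 555 CPM in the FLAG libraries and 942, 728 and 858 CPM in the HA libraries. It was the least abundant of these 6 tiles, without overlap between precipitates and Input, at -1.30 ± 0.30 and -1.11 ± 0.29.

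When the 38 tiles were put in order of mean log2 fold change, the widest gap between neighbours, 0.39, lay between ms2-4x:101 at -0.89 and ms2-4x:94 at -0.50. It left 25 tiles below and 13 above. This division was made after the values were seen and serves as description only. The 25 tiles ranged from -1.44 to -0.73 in FLAG and from -1.45 to -0.90 in HA, and the 13 from -0.80 to 0.58 and from -0.31 to 0.60, so in FLAG the sets overlapped. The lower tiles did not form 1 block: along the tile numbers they fell into 11 runs, with 11 runs of the other tiles between and after them. The longest runs were 84 to 88 and 100 to 104, with 5 tiles each, and 90 to 93 with 4.

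Of the other 19 tiles in the lower set, those with numbers up to 82 had log2 fold changes close to each other. Tile ms2-4x:76 was at -1.21 through FLAG and -1.19 through HA, ms2-4x:78 at -1.23 through FLAG and -0.93 through HA, ms2-4x:81 at -1.20 through FLAG and -1.13 through HA and ms2-4x:82 at -1.16 through FLAG and -0.99 through HA. In the run from 84 to 88, ms2-4x:84 was at -1.24 through FLAG and -1.10 through HA, ms2-4x:85 at -0.97 through FLAG and -1.23 through HA, ms2-4x:86 at -1.24 through FLAG and -1.12 through HA and ms2-4x:87 at -1.08 through FLAG and -1.22 through HA. These stood beside ms2-4x:88, and ms2-4x:87 was called in HA but not in FLAG. Its FLAG value rested on 1 library: replicate 1 had 3108 CPM against 942 and 1025 in the others, and without it the tile was at -1.89. Its HA call was lost in 5 of the 6 fits that left out 1 library, all but that without HA replicate 3.

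The run from 90 to 93 opened with the most abundant of the 38 tiles. Tile ms2-4x:90 had 11925, 12842 and 12272 CPM in Input, 9775, 4559 and 3881 CPM in the FLAG libraries and 5826, 4595 and 4253 CPM in the HA libraries. All precipitate libraries lay below Input, FLAG replicate 1 nearest to it, at -1.02 ± 0.31 and -1.34 ± 0.32. Tile ms2-4x:91 was at -0.91 through FLAG and -1.03 through HA and ms2-4x:92 at -1.21 through FLAG and -1.16 through HA. Of this run, ms2-4x:91 lay nearest to Input with both antibodies.

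In the run from 100 to 104, ms2-4x:100 was at -0.96 through FLAG and -1.29 through HA, ms2-4x:101 at -0.87 through FLAG and -0.90 through HA, ms2-4x:102 at -1.02 through FLAG and -1.31 through HA and ms2-4x:103 at -0.94 through FLAG and -1.01 through HA. Tile ms2-4x:103, the next most abundant, had a mean of 11837 ± 755 CPM in Input (SD, n = 3), 6153 ± 3015 CPM in FLAG and 5867 ± 1197 CPM in HA. Some calls in this run turned on 1 library. The FLAG call of ms2-4x:100 was lost without Input replicate 1 or 3 or FLAG replicate 3, that of ms2-4x:103 without Input replicate 3 or FLAG replicate 3, and the HA call of ms2-4x:103 without HA replicate 2. Tile ms2-4x:102 was called in HA alone, and that call was lost without Input replicate 2 or 3 or HA replicate 2 or 3. In FLAG, ms2-4x:102 had 4131 CPM in replicate 1 against 1606 and 1318, and without replicate 1 it moved to -1.74. Tile ms2-4x:97, a run of its own, was at -1.28 through FLAG and -1.01 through HA.

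The scarcest tile, ms2-4x:95, had 337, 488 and 467 CPM in Input, 377, 289 and 112 CPM in the FLAG libraries and 205, 102 and 239.5 CPM in the HA libraries. FLAG replicate 1 overlapped Input and the HA libraries did not, at -0.73 ± 0.51 in FLAG and -1.24 ± 0.52 in HA. The HA call of this tile (adjusted p = 0.0441 by edgeR's quasi-likelihood test) was lost whichever of the 6 Input and HA libraries was left out, with adjusted p of 0.0608 to 0.184.

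At the other end, ms2-4x:89 was the only 1 of the 38 tiles called higher, and its neighbours 88 and 90 were both called lower. Tile ms2-4x:89 had 6112, 5332 and 7058 CPM in Input, 7816, 10280.2 and 9480.3 CPM in the FLAG libraries and 8349, 10206 and 9398 CPM in the HA libraries. All 6 precipitate libraries lay above all 3 Input libraries, at 1.49-fold in FLAG (0.58 ± 0.15) and 1.51-fold in HA (0.60 ± 0.15). Both calls were lost with library size as the only scaling, where the values were 0.30 and 0.30.

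The next 5 tiles in this order lay near their Input level. Tile ms2-4x:83 had 2832, 2547 and 3081 CPM in Input, 1666, 2858 and 4152 CPM in the FLAG libraries and 3142, 4470.1 and 3955 CPM in the HA libraries. Its HA libraries were all above Input, its FLAG libraries ran from the lowest to nearly the highest value of the tile, and neither 0.04 ± 0.26 in FLAG nor 0.45 ± 0.26 in HA passed. Tile ms2-4x:72 had 5387, 4782 and 5219.9 CPM in Input, 5820.1, 5582 and 6563 CPM in the FLAG libraries and 5149, 5349.8 and 6074 CPM in the HA libraries. Its FLAG libraries were just above Input and its HA libraries overlapped it, at 0.22 ± 0.15 and 0.11 ± 0.15. Tile ms2-4x:70 had 614, 493 and 649.8 CPM in Input, 399, 579 and 755 CPM in the FLAG libraries and 677, 734 and 693 CPM in the HA libraries. The FLAG values lay on both sides of Input and the HA values just above it, at -0.02 ± 0.36 and 0.26 ± 0.36.

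Tile ms2-4x:96 had 2200.3, 2029 and 2680.2 CPM in Input, 2152, 2978 and 2061 CPM in the FLAG libraries and 2094, 2365 and 2729.8 CPM in the HA libraries. The 3 groups overlapped, at 0.06 ± 0.24 and 0.06 ± 0.24. Tile ms2-4x:105, the last of the pool, had 4250.4, 4403 and 3904 CPM in Input, 4116, 3716 and 4875 CPM in the FLAG libraries and 3838, 3217 and 4847 CPM in the HA libraries. Its groups overlapped as well, at 0.02 ± 0.18 and -0.08 ± 0.18. Of these 5 tiles none was called with either antibody. By library size alone, tiles 83, 72, 96 and 105 turned negative in FLAG (-0.23, -0.05, -0.21 and -0.26) and tiles 72, 70 and 96 in HA (-0.18, -0.03 and -0.23), so the side of 0 on which they lie rests on the scaling.

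The remaining 7 tiles above the gap lay between the ends. Tile ms2-4x:74 was at -0.57 through FLAG and -0.27 through HA, and was called lower in FLAG alone. That call was lost in 5 of 6 fits with 1 library left out, all but the fit without FLAG replicate 1. Tile ms2-4x:94 had 912, 776 and 899.5 CPM in Input, 615, 161 and 706 CPM in the FLAG libraries and 625, 897 and 744 CPM in the HA libraries. FLAG replicate 2 held far fewer reads than the other precipitate libraries, and the fold changes were -0.80 ± 0.40 and -0.19 ± 0.40, neither called. Without FLAG replicate 2 its FLAG value was -0.39, and without FLAG replicate 1 it was -1.01 and called. Tile ms2-4x:99 was at -0.36 through FLAG and -0.31 through HA with no overlap between either precipitate and Input, but was not called. The others were ms2-4x:75 at -0.07 through FLAG and 0.01 through HA, ms2-4x:77 at -0.10 through FLAG and -0.19 through HA, ms2-4x:80 at -0.17 through FLAG and -0.11 through HA and ms2-4x:98 at -0.22 through FLAG and -0.02 through HA, none called.

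The abundance in Input, one side of the contrast that chose the tiles, had overlapping ranges in the lower tiles and the others. The mean Input level of the 38 tiles ran from 430.4 to 12346 CPM with a median of 3761, next to a median of 4764 (2261 to 9516) over tiles 10 to 67 and of 52634 over tiles 2 to 9. Within the 38, the 25 lower tiles had Input levels of 430.4 to 12346 CPM (median 3769) and the 13 others of 585.6 to 6168 CPM (median 3499). Tiles ms2-4x:88 and ms2-4x:89 had overlapping Input levels, at 5616 ± 327 CPM and 6168 ± 864 CPM (SD, n = 3), and lay at 2075 ± 1022 CPM and 9192 ± 1257 CPM in FLAG. The 5 tiles under 2000 CPM in Input were numbers 70, 73, 94, 95 and 100. Of their 50 barcodes, 43, 50, 34, 38 and 44 were seen in any of the 9 libraries.

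The libraries of 1 group differed more in the precipitates than in Input. Across the 38 tiles the coefficient of variation over 3 libraries had a median of 7.20% in Input (2.51% to 19.0%), 31.6% in FLAG (7.53% to 72.6%) and 15.8% in HA (3.36% to 49.4%). Over tiles 10 to 67 the medians were 6.69%, 16.8% and 9.17%. Replicate 1 of both precipitates stood nearest to Input. The median log2 ratio of the 38 tiles to the mean of Input was -0.58 in FLAG replicate 1, -1.24 in replicate 2 and -1.52 in replicate 3, and -0.80, -1.18 and -0.99 in HA replicates 1, 2 and 3. Of the 25 lower tiles, 23 had their highest FLAG level in replicate 1 and 18 their highest HA level in replicate 1. For the 13 other tiles the library medians were close together, at -0.15, -0.01 and -0.05 in FLAG and -0.02, 0.06 and 0.01 in HA. Without FLAG replicate 1 the median FLAG log2 fold change of the 38 tiles was -1.37 and 27 were called lower, beside 39.4% of the pool in the same fit, with tiles 87, 94, 99 and 102 called that were not called with it. What sets replicate 1 apart was not tested.

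In the 25 lower tiles the separate barcodes mostly pointed the same way as their sum. The sum is made of these barcodes and the border was set on the same counts, so this is a description only. Barcodes of 1 tile share that tile and its libraries, so they are no replicates of a condition. Among barcodes with at least 30 reads over Input and the precipitate, 1413 of 1826 (77.4%) had a lower scaled count in FLAG than in Input and 1371 of 1829 (75.0%) in HA, where the shares over the other tested tiles were 42.9% and 40.6%. In the 25 lower tiles these were 1084 of 1219 (88.9%) in FLAG and 1086 of 1219 (89.1%) in HA, and in the 13 others 329 of 607 (54.2%) and 285 of 610 (46.7%). For ms2-4x:88, 49 of 50 barcodes were lower in FLAG and 47 in HA. Tile ms2-4x:90 had 47 and 49 of 50 lower, and ms2-4x:103 had 48 and 49. For ms2-4x:89, the called exception, 9 of 50 were lower in FLAG and 8 in HA. Tile ms2-4x:105 had 24 and 25 of 50 lower.

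The median barcode of a tile minus the sum over its barcodes was -0.13 on the log2 scale in FLAG and -0.08 in HA, as medians over the 38 tiles. The log2 ratio of the median barcode was -1.49 in FLAG for ms2-4x:88, where the summed tile gave -1.49, and -1.05 for ms2-4x:103, where it gave -0.997. In HA the median barcode of ms2-4x:90 was at -1.28 beside -1.36 for the sum. The barcodes of the 2 most abundant tiles had an SD of 0.56 on the log2 scale in FLAG for ms2-4x:103 and 0.84 for ms2-4x:90. The next in Input level, ms2-4x:91, had 1.94, ms2-4x:89 had 0.63, ms2-4x:88 had 2.33, ms2-4x:92 had 2.28 and ms2-4x:93 had 3.15. Any barcode without a read in the whole group enters such an SD with a ratio set by the added 0.5. The SD is therefore not the scatter of measured ratios alone. The tile that departed most was ms2-4x:95, whose median barcode was at -7.08 in FLAG and whose sum was at -0.77. Only 7, 4 and 4 of its barcodes had a read in FLAG replicates 1, 2 and 3, so most of the 33 barcodes used had none. Their ratios are set by the added 0.5 and their Input reads, so -7.08 is no measured level. In FLAG replicate 2 only 4 of its 50 barcodes had a read and 1 of them held 59.5% of the tile's 1608 reads. With each tile's barcode of most Input reads left out, 24 of the 38 tiles were called lower in FLAG, beside 32.7% of the pool in that fit, and 24 in HA, beside 29.8%.

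In all 25 lower tiles the mean log2 number of barcodes seen was lower than in Input, by differences of at most -0.11 in FLAG and -0.03 in HA. This was not particular to them: in the 13 other tiles the difference was at most -0.02 in FLAG and ran from -0.38 to 0.05 in HA. Tile ms2-4x:88 had a read for all 50 barcodes in each Input library, whereas 14, 21 and 8 of 50 had none in FLAG replicates 1, 2 and 3, and 10, 17 and 5 in HA. By counting error alone, a count of 0 has an upper 95% limit of about 3 on the expected count. The barcodes that were seen in FLAG replicate 2 held 343.5 reads each on average, with 9961 reads for the tile. In ms2-4x:89 the numbers without a read were 3, 1 and 0 in FLAG and 2, 0 and 0 in HA. In ms2-4x:93 they were 1, 1 and 1 in Input, 18, 28 and 9 in FLAG and 18, 14 and 6 in HA. In the abundant ms2-4x:90 they were 2, 8 and 1 in FLAG and 1, 7 and 1 in HA, and none in Input. Over the 38 tiles, the barcodes without a read came to 277, 210 and 192 of 1900 in Input, 659, 842 and 439 in FLAG and 545, 684 and 383 in HA. Over the other tested tiles such barcodes came to 185, 123 and 77 of 3300 in Input. There they came to 484, 478 and 166 in FLAG and to 285, 381 and 156 in HA. Replicate by replicate, both precipitates of those tiles also lacked more barcodes than Input. The rise in missing barcodes was therefore not confined to the 38 tiles. The reads on the 38 tiles were fewer in the precipitates, and their part in the missing barcodes was not tested.

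A tile's mean log2 level is the sum of 2 parts, the log2 number of barcodes seen and the log2 CPM per barcode seen. For the 25 lower tiles the median difference from Input in FLAG was -0.57 (range -1.64 to -0.11) in barcodes seen and -0.69 (-1.05 to 0.75) in CPM per barcode seen. In HA it was -0.41 (-1.03 to -0.03) and -0.75 (-1.26 to -0.12). The 13 other tiles had -0.26 and 0.12 in FLAG, and -0.11 and 0.14 in HA. The 2 most abundant tiles differed mostly in the level per barcode: ms2-4x:90 was at -0.11 in barcodes seen and -1.03 in CPM per barcode in FLAG, and ms2-4x:103 at -0.15 and -0.90. The scarce ms2-4x:73 was at -0.93 and -0.43, with more of its difference in barcodes seen.

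FLAG and HA were also compared with each other, a contrast that the border was not set on. Both antibodies recover the same protein by different tags, so this comparison asks whether the tag used changed which tiles came down. edgeR called 0% of the 104 tested tiles, 0 of the 38 among them, and DESeq2 called 0. At an unadjusted p under 0.05 there was 1 tile in the pool and none of the 38. The median FLAG minus HA log2 difference of the 38 was -0.02, next to -0.02 over all tested tiles, with 22 tiles below 0 and 16 above. Single differences ran from -0.61 ± 0.40 for ms2-4x:94 to 0.51 ± 0.51 for ms2-4x:95, both of them scarce tiles. By edgeR's quasi-likelihood test the smallest p of the 38 was that of ms2-4x:83, at -0.41 ± 0.26, followed by ms2-4x:94, both with an adjusted p of 1.00. Without FLAG replicate 1 the median difference of the 38 was -0.25, and again 0 were called. The standard errors of these differences ran from 0.15 to 0.51 with a median of 0.25, and a missed threshold does not show that the antibodies recovered a tile alike.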

How the data were processed

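The authors deposited raw read counts, with a line for every barcode of every tile and a column for every library, from single-end amplicon sequencing, per the labels' protocols. All values were whole numbers and column totals differed. How reads were assigned to tiles and barcodes is not given in the sources used here. No molecular identifiers are described, so intervals and floors cover counting error only. Columns were matched to samples by name, with 0 left unmatched. Counts were summed over the 50 barcodes of a tile in R 4.3.3. The 9 MS2 libraries were fitted together in edgeR 4.0.16 (filterByExpr, which kept 104 of 105 tiles, TMM, robust quasi-likelihood F test). Called means a Benjamini-Hochberg adjusted p under 0.05 over the 104 tiles. Each standard error was taken from the F statistic, as the size of the log2 fold change over its root. The 3 groups shared 1 estimate of the spread. A standard error or a call therefore does not rest on the spread of the 2 compared groups alone. Barcode ratios used counts summed over a group plus 0.5. The fit was tested on simulated data with equal numbers of raised and lowered tiles and the same spread for every tile. Its error rate at the spread and balance of these data was not tested. Library pairs within a group differed beyond sampling noise over the 38 tiles (chi-square per degree of freedom of 127.3 to 1330). Tiles given with every library followed a rule: the 6 lowest and 6 highest, the first and last 2 numbers, the last 2 before the border, the 2 smallest p of FLAG against HA, and the highest and lowest in Input. The tiles, the rule and the settings were chosen with earlier results of these data known.

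Same-numbered FLAG and HA libraries deviated together from their group means in replicate 1 (r of 0.65 over tiles). In replicates 2 and 3 they did so little (0.14 and 0.15), so the data alone do not settle whether same numbers are paired. HA replicate 2 deviated more like FLAG replicate 3 (r = 0.59). Input did not pair with either, with r from -0.19 to 0.09. Alternatives were DESeq2 1.42.0, scaling by RLE or by library size alone, filtering at a mean count of 50 or not at all, the replicate block, each library left out, only the 2 groups compared, the leading barcode or the 8 most abundant tiles left out, prior counts, barcode minimums and, chosen after seeing the data, the 5 scarcest tiles left out. The tables of the other pools were not used here.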

Additional observations from a re-analysis of the deposited data

How the results depend on the processing

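The division of the 38 tiles into many lower and few higher was kept, in direction, under each alternative. All of these fits reuse the libraries on which the border was set, so this describes the settings and adds no support. Tiles called lower numbered 20 to 27 in FLAG and 21 to 27 in HA, beside 24.0% to 41.3% of the pool with either antibody. Tiles called higher came to 0 in both with library size only, to 2 in FLAG without the 8 tiles of most Input reads and to 2 in HA with only the 2 groups compared. Library size only moved the HA median to -1.32 and the share of barcodes lower to 83.1% in FLAG and 81.8% in HA; with 1 library left out the latter was 71.8% to 75.7%. Without the 8 most abundant tiles in the denominator the 38 tiles held 35.9% of Input, 24.2% of FLAG and 24.0% of HA reads. A minimum of 100 reads over the 3 Input libraries was chosen after seeing the data. Among barcodes of the 38 tiles that met it, the share without a read in a single Input library was 6.36% on average. Among all their barcodes it was 11.9%.

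With the replicate block, 25 tiles were called lower in FLAG (33.7% of the pool), 24 in HA (29.8% of the pool) and 0 between FLAG and HA; ms2-4x:83 and ms2-4x:105 turned to -0.0438 and -0.0011 in FLAG. Among the tiles given with every library, the only call that changed with the block was that of ms2-4x:95 in HA (adjusted p = 0.0868 by edgeR). Calls of other tiles changed as well, since the main fit called 23 of the 38 lower in FLAG and the block 25. Values near 0 changed sign. By library size only, FLAG values were -0.23 for ms2-4x:83, -0.0474 for 72, -0.21 for 96, -0.26 for 105 and -0.0893 for 66, and HA values -0.18 for 72, -0.0326 for 70, -0.23 for 96 and -0.13 for 66. In FLAG, ms2-4x:105 was at -0.011 with only the 2 groups compared, and ms2-4x:70 at 0.0776 without leading barcodes and 0.15 without the 8 tiles; in HA, 105 was at 0.052 without those 8. With 1 library left out, FLAG values ran from -0.26 to 0.16 for 70, -0.32 to 0.29 for 83, -0.13 to 0.18 for 96, -0.10 to 0.10 for 105 and -0.0807 to 0.41 for 66, and HA values from -0.0263 to 0.18 for 96, -0.23 to 0.0531 for 105 and -0.0089 to 0.35 for 66. The cause was not tested.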

Other observations

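Barcodes that were well covered in Input were often missing from some precipitate libraries of tiles 68 to 105, and seldom from all. Of the 1751 barcodes of these tiles with at least 100 reads over the 3 Input libraries, 464 had a read in all 6 precipitate libraries, 504 lacked one in 1 library, 335 in 2, 234 in 3, 124 in 4, 68 in 5 and 22 in all 6. Of the 3242 such barcodes of the other tiles, 2163 had a read in all 6 and 5 in none. The other tiles include tiles 2 to 9, with a median of 52634 CPM in Input against 3761 for the 38 tiles. The minimum does not match the read depth of the sets. The 22 barcodes missing from all 6 lay mostly in 2 scarce tiles, 7 of 19 in ms2-4x:95 and 6 of 35 in ms2-4x:100. Tiles with few barcodes missing anywhere were ms2-4x:89, where 46 of 50 had a read in all 6 libraries, ms2-4x:72 (36 of 50), ms2-4x:103 (35 of 50) and ms2-4x:90 (33 of 50), of which 103 and 90 were called lower with both antibodies and 72 was not called. Each of the FLAG and HA libraries had more barcodes without a read in replicate 2 than in replicates 1 and 3, 44.3% of 1900 in FLAG and 36.0% in HA. Without FLAG replicate 2 the mean share without a read in FLAG was 28.9%, next to 34.0% with it. The cause was not tested.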
